A study of Mus musculus with 9 samples.

Results

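The N-methyl-D-aspartate (NMDA) receptor genes Grin1, Grin2a, Grin2b, Grin2c, Grin2d and Grin3a were followed in bulk RNA sequencing of mouse brain. They were chosen by name, as the targets of ketamine, with earlier results of these data known. They make up 6 of the 18956 genes of the deposited read count table. All 6 passed the filter on low counts, with 18194 genes tested in total. The tissue was labelled as the anterior paraventricular nucleus of the thalamus, a midline thalamic nucleus, and came from BALB/c mice. There were 3 groups of 3 libraries. The first group was not stressed and received saline (NS_Saline, "non-stressed saline"). The second went through 5 days of social defeat, the exposure of a mouse to an aggressive one, and received saline (smSDS_Saline, "stressed saline"). The third went through the same defeat and received (2S,6S)-HNK, a hydroxynorketamine, which is a metabolite of ketamine (smSDS_SHNK, "SHNK"). No group was given the drug without stress. The sources used here give no dose, route, age, sex or time of dissection. Nor is it stated that each library is a different animal, so p-values measure only the spread between these libraries, which may be technical.

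NMDA receptors are glutamate-gated cation channels that let calcium into the postsynaptic cell and need a co-agonist, glycine or D-serine. Every receptor contains GluN1, the product of Grin1, which binds the co-agonist. It is joined by glutamate-binding GluN2 subunits, the products of Grin2a to Grin2d, which set how fast the channel closes and how strongly magnesium blocks it, or by the glycine-binding GluN3A of Grin3a, which lowers calcium entry. Ketamine blocks the open channel. Grin2a and Grin2b are the main forebrain GluN2 genes. Grin2c is best known from cerebellar granule cells and is also found in thalamus and astrocytes, and Grin2d is prominent in diencephalon, brainstem and interneurons.

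The last 60 bases of the coding sequence are printed for 5 of the genes because they show 2 features, the kinship of the GluN2 genes and the spread of base composition. Of these, base composition is taken up again in the results below. The capitals mark the last 4 codons before the stop codon, which in the GluN2 genes encode the tail that binds PDZ domains of the PSD-95 family of scaffold proteins. The sequences come from the GENCODE M21 transcripts, build GRCm38, read 5′ to 3′ along the gene. All 6 genes lie on the minus strand, and each stretch lies in the last exon of the longest transcript.
Grin1 (chr2:25292371-25292430): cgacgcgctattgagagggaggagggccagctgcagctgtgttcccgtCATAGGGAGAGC
Grin2b (chr6:135732101-135732160): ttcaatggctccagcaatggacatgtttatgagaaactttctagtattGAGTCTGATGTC
Grin2c (chr11:115249574-115249633): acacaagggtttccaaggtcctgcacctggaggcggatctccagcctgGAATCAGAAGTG
Grin2d (chr7:45832783-45832842): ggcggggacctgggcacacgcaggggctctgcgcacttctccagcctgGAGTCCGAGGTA
Grin3a (chr4:49665229-49665288): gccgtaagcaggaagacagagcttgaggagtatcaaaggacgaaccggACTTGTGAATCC

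G or C made up 38.3% of this stretch in Grin2b, against 51.7% in Grin3a, 56.7% in Grin2c, 63.3% in Grin1 and 70.0% in Grin2d. The same split held over the longest transcripts. Grin2a (44.8%) and Grin2b (45.7%) were GC-poor, Grin3a (49.2%) was intermediate, and Grin1 (59.4%), Grin2c (62.1%) and Grin2d (65.0%) were GC-rich. The translated coding sequences paired the GluN2 genes in the same way, with 56.1% identical aligned residues between Grin2a and Grin2b and 56.7% between Grin2c and Grin2d. Grin2a and Grin2c shared 47.3%. The transcripts of Grin2a and Grin2b are also the longest, at 14634 and 24060 bases, against 4276 for Grin1, 4895 for Grin2c, 5431 for Grin2d and 7491 for Grin3a. The longest run of identical bases between transcripts of any 2 of the genes was 34, between Grin2b and Grin2c.

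The members were read at high depth. Their counts ran from 556 for Grin2a in stressed saline replicate 3 to 5809 for Grin1 in non-stressed saline replicate 3, out of library totals of 32307869 to 51569143. Levels are given as CPM, counts brought to a common library total after TMM scaling, a correction for composition. To compare genes with each other, CPM was divided by the length of the longest transcript in kilobases. In non-stressed saline Grin1 stood highest at 26.7 ± 6.55 CPM per kilobase (SD, n = 3), then Grin3a at 9.33 ± 0.219, Grin2c at 7.94 ± 2.26, Grin2d at 4.33 ± 1.36, Grin2a at 1.44 ± 0.0726 and Grin2b at 1.33 ± 0.0511. In that group the means ± 1 SD of the neighbours Grin3a and Grin2c, Grin2c and Grin2d, and Grin2a and Grin2b overlapped. The genes were read in the same libraries, so this overlap does not test a difference between them. Grin2c was above Grin2d in each of the 3 libraries, at 38.0, 28.3 and 50.4 against 19.6, 19.0 and 32.1 CPM, on a shorter transcript. No test was made between genes. Stressed saline gave the same order, from 21.3 ± 0.549 for Grin1 to 1.12 ± 0.142 for Grin2b, and so did SHNK, from 21.2 ± 3.32 to 1.35 ± 0.0853. The lower part of the order depends on the length used. Per kilobase of coding sequence, non-stressed saline had Grin2b at 7.19 ± 0.276, above Grin2d at 5.93 ± 1.86 and Grin2a at 4.81 ± 0.242, while Grin1 (39.7 ± 9.74), Grin3a (20.5 ± 0.482) and Grin2c (10.5 ± 2.98) stayed in front. Grin1os, an antisense gene that overlaps 1307 exonic bases of Grin1, held 1.23% to 2.28% as many counts as Grin1. Gm26653, which shares 49 bases with Grin2b on the opposite strand, held 5.14% to 10.3% as many as Grin2b. Also on the opposite strand, Gm45441 overlaps 643 exonic bases of Grin2d and Gm25837 91 of Grin2c. Gm14329 and Gm22892 overlap 143 and 86 of Grin2b. Counts of these other genes are not given here. No source used here says whether counting used the strand, so such reads cannot be told apart.

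Marker lists were read to check the tissue label, and several of them differed between the groups. All 12 listed markers of anterior paraventricular neurons were in the table, with a summed level of 2814 to 3195 CPM in non-stressed saline, 2565 to 3197 in stressed saline and 2706 to 3056 in SHNK. Of 15 habenula markers (the habenula borders this nucleus), 13 were in the table and Chrnb4 and Chrnb3 were not. Their mean log2 CPM was 3.08 ± 0.54 in non-stressed saline, 5.06 ± 0.76 in stressed saline and 1.59 ± 0.28 in SHNK (SD, n = 3), and their sums were 2017 to 2241, 1972 to 3038 and 1765 to 2137 CPM. Calb2 is on both lists. All 14 astrocyte markers were present, with sums of 5311 to 5476, 4623 to 5970 and 4138 to 4441 CPM in the same order of groups. All 14 ependyma and cilia markers were present at 90.7 to 113, 183 to 283 and 101 to 156 CPM, and all 15 markers of other thalamic nuclei at 3045 to 3495, 2949 to 3003 and 3556 to 4087 CPM. The sum of the 15 pan-neuronal markers was 11434 to 11794, 10401 to 10744 and 11860 to 13167 CPM. Of 6 cerebellar granule cell markers, Gabra6, Cbln3, Fat2 and Barhl1 were not in the table, and the other two summed to 7.26 to 10.5 CPM over all libraries.

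**Figure D1:**
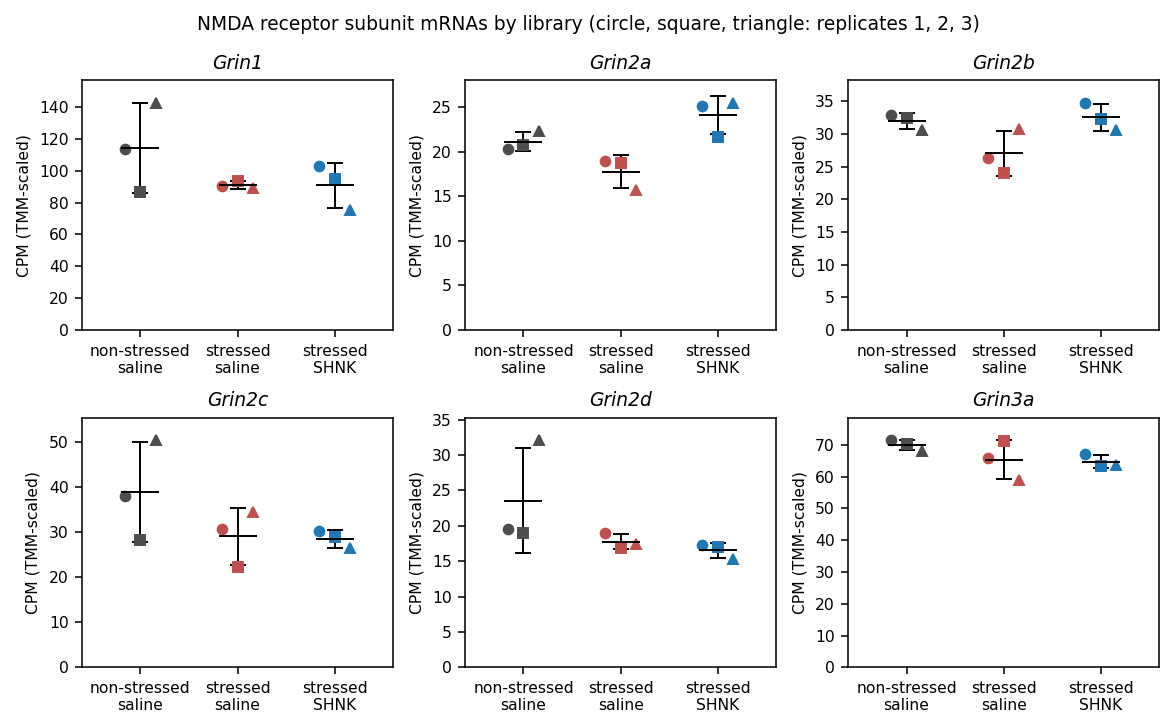
Level of each NMDA receptor subunit mRNA (vertical axis, TMM-scaled CPM from 0) in the 3 libraries of each group; symbols are libraries, the wide bar is the group mean and the whiskers 1 SD. Grin2a is the gene whose SHNK libraries (21.6 to 25.5 CPM) all lie above its stressed saline libraries (15.7 to 18.9 CPM), and non-stressed saline replicate 3 is the highest library for Grin1, Grin2c and Grin2d.

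The effect of social defeat on these mRNAs was read from stressed against non-stressed saline. All 6 subunit mRNAs had a lower fitted level after stress, as had 54.5% of all genes tested, and none of the 6 passed the test over all genes. The obligatory subunit Grin1 was at 114, 86.5 and 143 CPM in the 3 non-stressed libraries and at 90.2, 93.7 and 89.3 CPM after stress. The stressed libraries lay inside the wide range of the non-stressed ones, and the log2 fold change was -0.33 ± 0.15 (standard error; adjusted p = 0.513, edgeR quasi-likelihood test with Benjamini-Hochberg adjustment).

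Among the GluN2 genes, Grin2a was at 20.3, 20.7 and 22.3 CPM without stress and at 18.9, 18.7 and 15.7 CPM with it. Every stressed library was below every non-stressed one, with a difference of -0.25 ± 0.11 on the log2 scale (adjusted p = 0.493). Throughout, whether libraries of 2 groups overlap is a description only, since the share of all genes that do not overlap is not given. Grin2b went from 32.8, 32.4 and 30.5 to 26.3, 24.1 and 30.7 CPM, where the third stressed library overlapped the non-stressed range, and its log2 fold change was -0.24 ± 0.10 (adjusted p = 0.463). Grin2c was at 38.0, 28.3 and 50.4 CPM without stress and at 30.8, 22.2 and 34.4 CPM with it. These ranges overlapped, and Grin2c gave -0.42 ± 0.18 (adjusted p = 0.481). Grin2d was at 19.6, 19.0 and 32.1 CPM without stress and at 18.9, 16.8 and 17.4 CPM with it, ranges that did not overlap but almost met, for a difference of -0.41 ± 0.17 (adjusted p = 0.417). Grin3a, the GluN3 gene among those followed here, was at 71.4, 70.2 and 68.2 CPM and then at 65.8, 71.1 and 58.8 CPM. It moved least, by -0.099 ± 0.085 (adjusted p = 0.868).

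Over all genes this comparison called 213, or 1.17%, and 0 of the 6 subunits were among them. At an unadjusted p under 0.05, 5 of the 6 were lower and none higher, where 3.37% of all genes were lower by that rule. That count depended on single libraries. Leaving out non-stressed saline replicates 1, 2 and 3 in turn gave 2, 3 and 1 of 6. Without stressed saline replicates 1, 2 and 3 the counts were 3, 1 and 2, and without SHNK replicates 1, 2 and 3 they were 3, 3 and 5. The SHNK libraries enter this comparison only through the filter, the scaling and the shared estimate of the spread. The count was 3 of 6 with the replicate number as a block, 3 with the filter of 1 CPM in 3 libraries, and 1 with only the 2 groups compared in the fit. DESeq2, which called 2.59% of all genes, and limma voom also called 0 of the 6. The median of the 6 was -0.29, against -0.017 over all genes tested. The size of the differences in Grin1, Grin2c and Grin2d also moved with single libraries. Without non-stressed saline replicate 3 they were -0.14 ± 0.13, -0.19 ± 0.17 and -0.12 ± 0.12, while Grin2a gave -0.21 ± 0.12 and Grin2b -0.27 ± 0.12. Without non-stressed saline replicate 2 Grin1 was at -0.49 ± 0.13, Grin2c at -0.60 ± 0.17 and Grin2d at -0.54 ± 0.17, and without stressed saline replicate 2 Grin2c was at -0.26 ± 0.18. In the same comparison 10 of the 13 habenula markers and 9 of the 14 ependyma markers rose. So did 2 of 14 astrocyte, 2 of 8 choroid plexus, 1 of 8 hippocampus and 1 of 11 striatum and septum markers. The part of these markers in the subunit values was not tested. In bulk tissue, fewer cells of a type and less mRNA per cell cannot be told apart.

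SHNK against stressed saline asked what the metabolite did in defeated mice. Grin2a rose, and the other 5 subunits did not pass the test. Grin2a was at 25.2, 21.6 and 25.5 CPM in the SHNK libraries, against 18.9, 18.7 and 15.7 CPM in stressed saline. All 3 SHNK libraries were above all 3 stressed ones, and the group means were 24.1 ± 2.14 and 17.8 ± 1.83 CPM (SD, n = 3). The log2 fold change was 0.44 ± 0.11, with a 95% interval of 0.20 to 0.67 (adjusted p = 0.0330), a 1.35-fold higher level. This was 1 of 6 subunits in a comparison that called 1167 genes, or 6.41% of all.

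The Grin2a call was close to the threshold. It was made by DESeq2 (adjusted p = 0.00427, with 11.0% of all genes called) and by limma voom (adjusted p = 0.0360, with 6.52%), and in each edgeR fit that left out 1 non-stressed library. It was lost with the replicate number as a block (log2 fold change 0.43 ± 0.12, adjusted p = 0.0535). It was also lost when any single stressed saline or SHNK library was left out, with log2 fold changes of 0.35 to 0.51 and adjusted p from 0.0558 to 0.151. Without stressed saline replicates 1, 2 and 3 in turn the adjusted p was 0.0558, 0.0727 and 0.104, and without SHNK replicates 1, 2 and 3 it was 0.0691, 0.0591 and 0.151.

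Grin2b, the other main forebrain GluN2 gene, was at 34.7, 32.3 and 30.7 CPM with SHNK, of which the lowest overlapped the highest stressed library. Its difference was 0.27 ± 0.10 (adjusted p = 0.135). With Grin2a it made 2 of 6 subunits higher at an unadjusted p under 0.05, where 10.6% of all genes were, and 1 of 6 when SHNK replicate 1 or either of stressed saline replicates 1 and 2 was left out. Grin1 was at 103, 94.5 and 75.1 CPM with SHNK, around the narrow stressed range, and its difference was -0.0032 with a 95% interval of -0.32 to 0.32. Grin2c was at 30.3, 29.0 and 26.4 CPM, inside the stressed range, with an interval of -0.42 to 0.37. Grin2d, at 17.3, 17.0 and 15.3 CPM, gave -0.10 with an interval of -0.46 to 0.26. Grin3a, at 67.0, 63.3 and 63.7 CPM, gave -0.013 with the narrowest interval of the 6, -0.20 to 0.17. The median of the 6 was -0.0082, against -0.0091 over all genes. In this comparison 12 of the 13 habenula, 7 of the 14 astrocyte and 8 of the 14 ependyma markers fell, and 8 of the 15 markers of other thalamic nuclei and 3 of the 15 pan-neuronal markers rose. Of the shorter lists, 4 of 5 blood markers rose, with sums of 372 to 516 CPM in stressed saline and 586 to 676 CPM in SHNK, and 3 of 8 hippocampus and 2 of 8 choroid plexus markers fell. Of the other lists, 1 anterior paraventricular marker rose, and 1 striatum and septum and 1 endothelium marker fell. Their part in the Grin2a result was not tested.

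SHNK against non-stressed saline set the treated libraries beside those that had neither stress nor drug. No subunit passed the test, in a comparison that called 1 gene, or 0.00550% of all. It shares its libraries with the comparisons above, so its values are given side by side with theirs and not as further evidence. The GC-rich subunits had the largest differences. Grin2d in SHNK (15.3 to 17.3 CPM) was below all non-stressed libraries (19.0 to 32.1 CPM), by -0.51 ± 0.17 (adjusted p = 0.136). Grin2c gave -0.45 ± 0.18 (adjusted p = 0.219) and Grin1 -0.33 ± 0.15 (adjusted p = 0.255), both with overlapping ranges. These 3 subunits were lower at an unadjusted p under 0.05, as were 11.0% of all genes. That count was 0 without non-stressed saline replicate 3 and 1 without SHNK replicate 2 or 3. Grin2a was 0.19 ± 0.11 above the non-stressed level (adjusted p = 0.392) and Grin2b 0.028 ± 0.10 (adjusted p = 0.921). Grin3a gave -0.11 ± 0.085 (adjusted p = 0.525), with SHNK libraries that all lay below the non-stressed ones. DESeq2 called Grin2d (adjusted p = 0.0471) among 994 genes, or 5.46% of all, and limma voom called 0 of the 6. When non-stressed saline replicate 2 was left out, edgeR called Grin1 (adjusted p = 0.0474) among 749 genes, or 4.10% of all. Without non-stressed saline replicate 3 the differences were -0.22 ± 0.12 for Grin2d, -0.22 ± 0.17 for Grin2c and -0.14 ± 0.13 for Grin1.

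The test of any difference among the 3 groups called none of the 6, against 888 genes or 4.88% of all. Grin2a came nearest (unadjusted p = 0.00522, adjusted p = 0.0728, edgeR), followed by Grin2d (adjusted p = 0.137). Of the 6, 4 had an unadjusted p under 0.05, the other two being Grin1 and Grin3a, where 22.0% of all genes did. DESeq2 called Grin2a (adjusted p = 0.0134) in a test that called 11.6% of all genes. Leaving out 1 library in turn gave 2 to 4 of the 6 at an unadjusted p under 0.05, the lowest count when non-stressed replicate 1 or 3, stressed replicate 1 or SHNK replicate 2 was the library left out.

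The base composition of the transcripts was followed because the libraries differed in it. Genes whose longest transcript was at least 55.6% GC were compared with those at most 44.0% GC, with 2651 genes in each set. For each library the median deviation from a gene's mean log2 CPM over the 9 libraries was taken in both sets. The GC-rich minus the GC-poor median was 0.015, 0.050 and 0.33 in non-stressed saline, 0.038, -0.024 and 0.22 in stressed saline, and -0.12, -0.16 and -0.38 in SHNK. The SHNK libraries thus lay below the other 6, although the balance also varied within each group. In the differences of SHNK from the other groups, this GC balance and the treatment cannot be told apart.

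**Figure D2:**
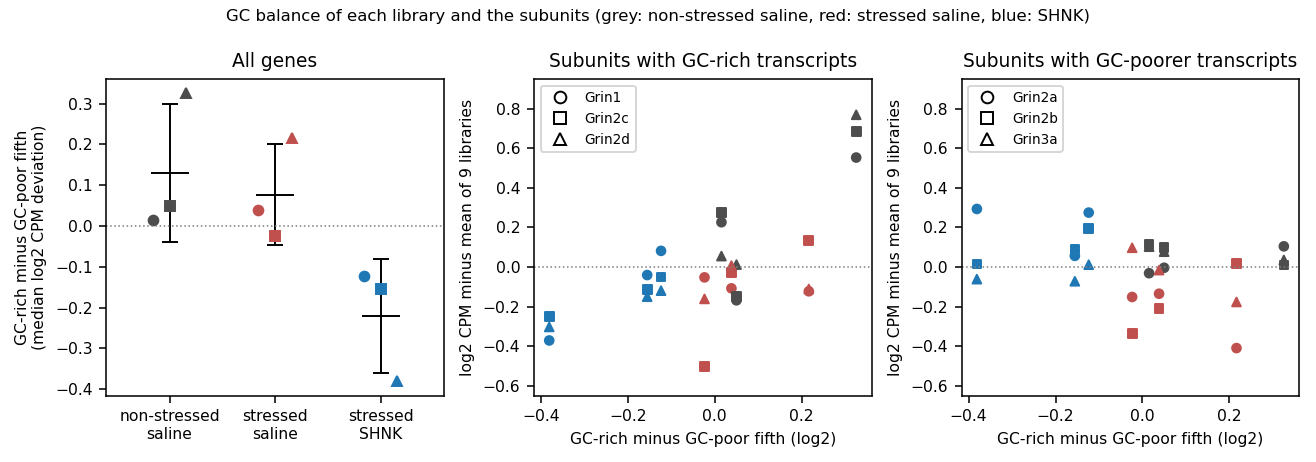
Left, the GC balance of each library (median log2 CPM deviation of GC-rich minus GC-poor genes; bars are means, whiskers 1 SD). Middle and right, each subunit's log2 CPM minus its mean over the 9 libraries against that balance: the GC-rich subunits are highest in the library at 0.33 and, for Grin1 and Grin2d, lowest in the library at -0.38, while Grin2a is low in stressed and high in SHNK libraries.

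Over the 9 libraries the GC balance and the log2 CPM of Grin2d had Pearson's r = 0.755 (exact permutation p = 0.0191, adjusted over the 6 subunits 0.115) and Spearman's rho = 0.80 (exact permutation p = 0.0138, adjusted 0.0830). For Grin2c r was 0.676 (exact permutation p = 0.0480, adjusted 0.127) and rho 0.633 (exact permutation p = 0.0760, adjusted 0.228). For Grin1 they were 0.647 (exact permutation p = 0.0634, adjusted 0.127) and 0.20 (exact permutation p = 0.613, adjusted 0.708), and for Grin2a -0.582 (exact permutation p = 0.0962, adjusted 0.144) and -0.467 (exact permutation p = 0.213, adjusted 0.425). None passed the adjustment. For Grin2b r was -0.109 and rho -0.167 (exact permutation p = 0.777 and 0.678, adjusted 0.881 and 0.708), and for Grin3a r was 0.0589 and rho 0.15 (exact permutation p = 0.881 and 0.708, adjusted 0.881 and 0.708). Without the 2 libraries farthest from the median balance, non-stressed saline replicate 3 and SHNK replicate 3, r was 0.317 for Grin2d, 0.342 for Grin2c, -0.372 for Grin1 and -0.853 for Grin2a, so the relation of the GC-rich subunits rested on those libraries. With group means removed, r was 0.758 for Grin2d, 0.774 for Grin2c and 0.698 for Grin1 (exact permutation p = 0.0509, 0.0509 and 0.162, adjusted 0.153, 0.153 and 0.243). For the others it was 0.451 for Grin2b, -0.511 for Grin3a and -0.270 for Grin2a (exact permutation p = 0.25, 0.153 and 0.481, adjusted 0.30, 0.243 and 0.481), so GC-poor Grin2b had the sign of the GC-rich subunits. None of the 6 passed the adjustment.

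The members were therefore also read from another fit, chosen with the data in view, in which a smooth trend on GC content and transcript length was estimated over all genes of each library and removed. Part of a group's own response can lie in such a trend. In stressed against non-stressed saline all 6 stayed below 0, at -0.26 ± 0.088 for Grin1, -0.22 ± 0.11 for Grin2a, -0.21 ± 0.10 for Grin2b, -0.32 ± 0.13 for Grin2c, -0.26 ± 0.11 for Grin2d and -0.073 ± 0.072 for Grin3a. In that fit 41.4% of all genes were above 0. None of the 6 was called (adjusted p from 0.194 to 0.759, edgeR), and 3 were lower at an unadjusted p under 0.05, as were 5.65% of all genes in that fit.

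In SHNK against stressed saline the GC-rich subunits had differences above 0 once the trend was removed. Grin1 gave 0.30 ± 0.088 (adjusted p = 0.0545), Grin2c 0.33 ± 0.14 (adjusted p = 0.157) and Grin2d 0.27 ± 0.11 (adjusted p = 0.159). Grin2b gave 0.35 ± 0.10 (adjusted p = 0.0606) and Grin3a 0.083 ± 0.072 (adjusted p = 0.540). Grin2a gave 0.47 ± 0.11 (adjusted p = 0.0190), again the 1 subunit called, in a fit that called 7.56% of all genes. At an unadjusted p under 0.05, 5 of the 6 were higher, as were 13.6% of all genes, and the median of the 6 was 0.32 against 0.020 over all genes. In this fit the Grin2a call was lost without stressed saline replicate 3 (adjusted p = 0.0599) or SHNK replicate 3 (adjusted p = 0.0998) and was kept without each of the other 7 libraries. Grin1 was also called without non-stressed saline replicate 2 or 3 (adjusted p = 0.0201 and 0.0366), and Grin2b without stressed saline replicate 3 (adjusted p = 0.00837).

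In SHNK against non-stressed saline the trend-removed differences of Grin1 (0.038 ± 0.088), Grin2c (0.0078 ± 0.13), Grin2d (0.0083 ± 0.11) and Grin3a (0.010 ± 0.072) were all near 0, where the reported fit had them below it. Grin2a was at 0.24 ± 0.11 (adjusted p = 0.398), the 1 subunit higher at an unadjusted p under 0.05, as were 6.04% of all genes. Grin2b was at 0.14 ± 0.10 (adjusted p = 0.654). The direction of Grin1, Grin2c, Grin2d and Grin3a relative to both saline groups thus depended on this choice. The directions of Grin2a and Grin2b did not in any of the 3 comparisons.

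**Figure D3:**
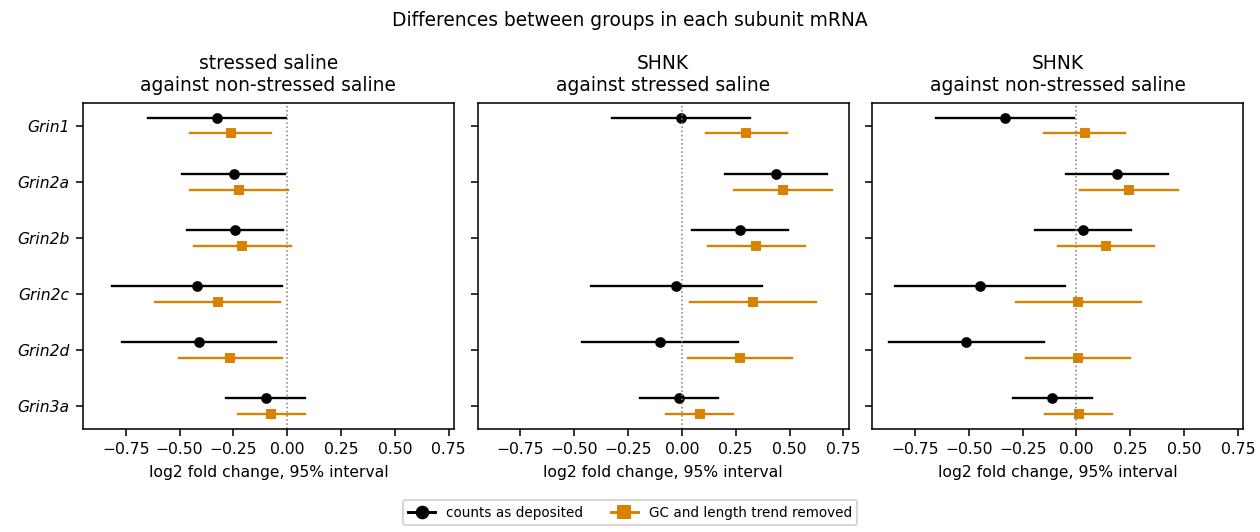
Log2 fold change (horizontal axis) with its 95% interval for each subunit in the 3 comparisons, from the counts as deposited (black circles) and after removal of each library's GC and length trend (orange squares). In SHNK against stressed saline Grin2a lies at 0.44 and 0.47 in the 2 fits, while Grin1 goes from -0.0032 to 0.30.

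Ratios between subunits within a library do not depend on how libraries are scaled. The log2 ratio of Grin2d to Grin2a counts was -0.057, -0.13 and 0.52 in non-stressed saline, -0.0016, -0.15 and 0.15 in stressed saline, and -0.54, -0.35 and -0.74 in SHNK. All 3 SHNK libraries were below the other 6. The exact permutation test over the 3 groups gave p = 0.0321, and 0.193 after adjustment over the 6 ratios examined. The smallest p this test can give is 0.00357. With the trend removed the SHNK values were -0.38, -0.16 and -0.31 and overlapped the stressed ones (exact permutation p = 0.0607, adjusted 0.364).

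The log2 ratio of Grin2a to the obligatory Grin1 was -2.48, -2.06 and -2.67 in non-stressed saline, -2.25, -2.32 and -2.51 in stressed saline and -2.03, -2.13 and -1.56 in SHNK. SHNK was above stressed saline in every library and overlapped non-stressed saline (exact permutation p = 0.118, adjusted 0.343). With the trend removed the difference between the means of SHNK and stressed saline went from 0.46 to 0.17. The SHNK libraries, at -2.19, -2.25 and -1.86, then overlapped stressed saline at -2.22, -2.27 and -2.32 (exact permutation p = 0.293, adjusted 0.586). Grin2c to Grin2a was 0.84 ± 0.37, 0.69 ± 0.45 and 0.25 ± 0.19 in the same order of groups (exact permutation p = 0.171, adjusted 0.343). Its difference between SHNK and stressed saline went from -0.45 to -0.12 with the trend removed, with overlapping libraries in both cases (exact permutation p = 0.55, adjusted 0.825). The ratio of Grin2b to Grin2a, often followed because it falls as forebrain synapses mature, was 0.60 ± 0.13, 0.60 ± 0.33 and 0.44 ± 0.16 (exact permutation p = 0.632, adjusted 0.632). Grin2b to Grin1 (-1.81 ± 0.40, -1.76 ± 0.21 and -1.47 ± 0.15) and Grin3a to Grin1 (-0.68 ± 0.38, -0.48 ± 0.10 and -0.48 ± 0.21) also did not pass (exact permutation p = 0.329 and 0.618, adjusted 0.493 and 0.632).

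**Figure D4:**
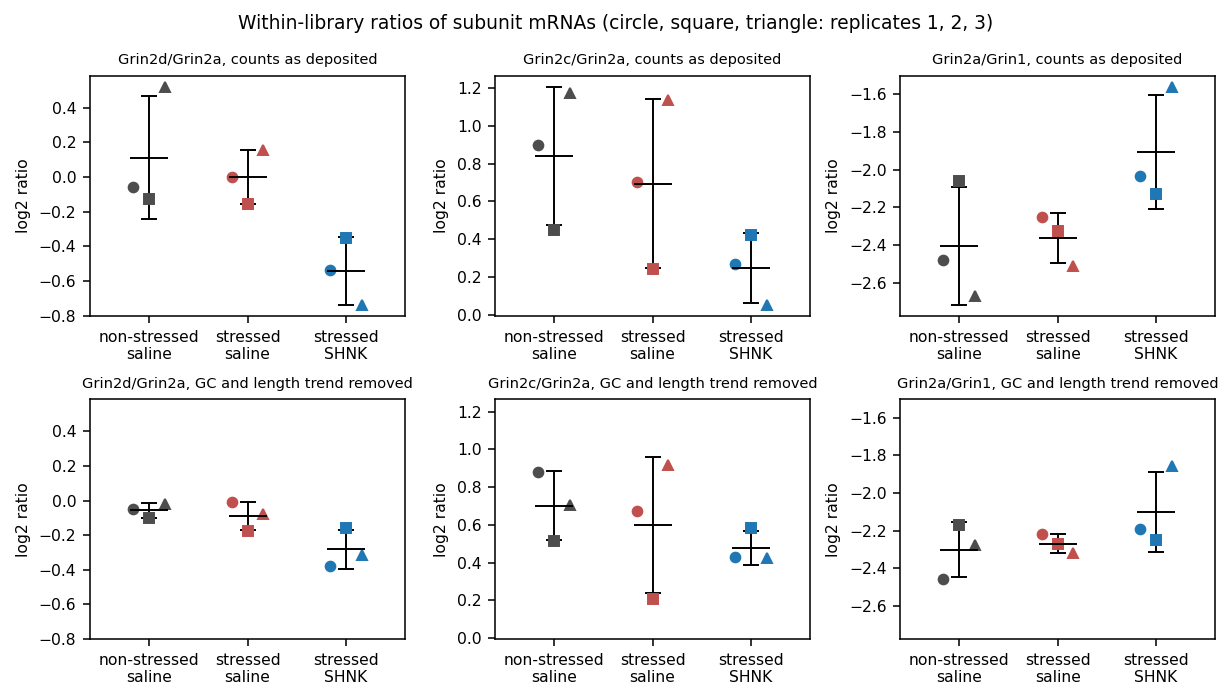
Log2 ratios of subunit mRNAs within each library (vertical axis) by group, from the counts as deposited (top row) and after removal of the GC and length trend (bottom row); symbols are libraries, bars means and whiskers 1 SD. In the top row the 3 SHNK libraries have the lowest Grin2d to Grin2a ratios, -0.35 to -0.74, and in the bottom row they overlap stressed saline.

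Each subunit was also set against the pan-neuronal markers of the same library. Grin2a lay below the mean log2 CPM of those 15 genes by -4.57, -4.52 and -4.43 in non-stressed saline, -4.56, -4.54 and -4.86 in stressed saline and -4.26, -4.53 and -4.30 in SHNK. SHNK and stressed saline did not overlap, but their nearest libraries, at -4.53 and -4.54, almost met. The group means differed by 0.29, against a log2 fold change of 0.44 for Grin2a itself. The exact permutation p over the 3 groups was 0.0679 (adjusted over the 6 subunits 0.204). Grin2d was at -4.39 ± 0.42, -4.65 ± 0.075 and -4.90 ± 0.12 (SD, n = 3; exact permutation p = 0.0250, adjusted 0.15), with SHNK below both other groups. Relative to these markers Grin1, Grin2b, Grin2c and Grin3a had exact permutation p from 0.189 to 0.332. Stressed minus non-stressed saline group means relative to the markers were -0.19 for Grin1, -0.15 for Grin2a and -0.14 for Grin2b. They were -0.29 for Grin2c, -0.26 for Grin2d and 0.0037 for Grin3a. Each lay above the log2 fold change of that subunit itself in the same comparison, and the libraries of the 2 groups overlapped for every subunit. This pair of groups was not tested.

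In the counts as deposited the GC-rich subunits moved together across libraries and Grin2a moved apart from them. Over the 9 libraries, which share depth and the GC balance above, log2 CPM had r = 0.80 between Grin1 and Grin2c, 0.87 between Grin1 and Grin2d and 0.84 between Grin2c and Grin2d. Grin2a had r of 0.076 with Grin1, -0.0089 with Grin2c and 0.032 with Grin2d, and 0.45 with Grin2b. With the trend removed these 4 values were 0.73, 0.56, 0.84 and 0.55. The r between the GC-rich subunits was then 0.63 for Grin1 and Grin2c, 0.73 for Grin1 and Grin2d and 0.71 for Grin2c and Grin2d. Grin2a was thus no longer apart from them. Among 9827 other well expressed genes, the 5 with the pattern most like Grin2a over the 9 libraries were Aaas (r = 0.977), Ahsa2 (0.962), Tmem267 (0.952), Fam171b (0.943) and Ppcs (0.938). For Grin1 they were Peg13 (r = 0.974), Actr1a, Lrtm2, Atg4b and Tacc2 (0.962), and for Grin2b Ptpn3 (r = 0.925), Ado, Gspt1, Ildr2 and Chga (0.881). For Grin2c they were Cdk9 (r = 0.985), Syt3, Diras1, Fam20c and Rhbdl1 (0.964), and for Grin2d Mgat5b (r = 0.965), Rps6kl1, Nacc1, Agpat1 and Slc25a23 (0.955). For Grin3a they were Suv39h1 (r = 0.953), Tmem248, Mast4, Ube4b and Tomm34 (0.897). With 9 libraries and so many genes, values of this size are a description of these libraries only.

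Genes that act with the receptor were read from 7 lists with 108 tested members. By edgeR and by limma voom, none of the 108 was called in stressed against non-stressed saline or in SHNK against non-stressed saline. At an unadjusted p under 0.05 in edgeR, 3 were higher and 16 lower in the first, where 6.08% of all genes were higher and 3.37% lower. By the same rule 6 were higher and 25 lower in the second, where 7.31% of all genes were higher and 11.0% lower. DESeq2 called 0 higher and 2 lower in the first, against 2.41% and 0.187% of all genes, and 1 higher and 12 lower in the second, against 1.82% and 3.64%. In SHNK against stressed saline, 6 of the 108 rose and 7 fell, where 2.45% of all genes rose and 3.96% fell. Among the kinases, phosphatases and calcium signalling genes, 5 of 26 rose and 1 fell. Calm2, a calmodulin gene whose product binds the GluN1 tail when calcium enters, rose from 3266 ± 84.2 to 4723 ± 724 CPM (SD, n = 3), by 0.53 ± 0.10 on the log2 scale (adjusted p = 0.00934, edgeR), and by 0.25 ± 0.060 with the GC and length trend removed (adjusted p = 0.0230). The catalytic subunits of the phosphatase calcineurin, Ppp3ca and Ppp3cb, rose by 0.35 ± 0.081 and 0.37 ± 0.088 (adjusted p = 0.0217 and 0.0248). Ptk2b, a tyrosine kinase that acts on NMDA receptors through Src, rose by 0.54 (adjusted p = 0.0267) and was named after its value was seen. Nos1, the nitric oxide synthase tethered to the receptor through PSD-95, went from 9.09 ± 1.21 to 5.11 ± 1.85 CPM, a log2 fold change of -0.82 ± 0.22 (adjusted p = 0.0430).

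Of the 11 co-agonist genes tested, 3 fell, none rose and 8 did not pass. The list median was -0.35, against -0.0091 over all genes, and with the GC and length trend removed it was -0.18, with 1 of the 11, Phgdh, called lower. Phgdh, the first enzyme of serine synthesis, went from 135 ± 14.4 to 96.7 ± 4.77 CPM (log2 fold change -0.48 ± 0.090, adjusted p = 0.00934). Shmt2, which interconverts serine and glycine, and Slc1a4, a transporter that carries serine, gave -0.35 ± 0.093 and -0.39 ± 0.11 (adjusted p = 0.0430 and 0.0432). Slc1a3, an astrocyte glutamate transporter, was the 1 of 10 glutamate supply genes to fall (-0.37 ± 0.10, adjusted p = 0.0434). Phgdh and Slc1a3 are typical of astrocytes, and 7 of the 14 astrocyte markers, Slc1a3 among them, fell in the same comparison. The part of that fall in these values was not tested.

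Of 17 genes downstream of receptor activity or block, 2 fell. Arc, an immediate early gene of synaptic activity, went from 16.2 ± 1.35 to 9.16 ± 0.505 CPM (log2 fold change -0.82 ± 0.13, adjusted p = 0.00496). The other immediate early genes of the list did not pass (adjusted p from 0.453 to 0.972, edgeR). Fos was at 0.026, Egr1 at 0.14, Egr3 at 0.51, Nr4a1 at 0.16, Junb at -0.037 and Npas4 at -0.45. They were named after their values were seen. Eef2k, the kinase that slows translation elongation and that ketamine is known to act on through NMDA receptors, gave -0.52 ± 0.12 (adjusted p = 0.0217). None of the 20 scaffold genes passed, Homer2 and Homer1 coming nearest (-0.17 ± 0.10 and 0.18 ± 0.11, adjusted p = 0.330 and 0.337), and none of the 6 kynurenine genes did. With the GC and length trend removed, 12 of the 108 rose and 4 fell, where 4.01% of all genes rose and 3.55% fell. Calm2, Ppp3ca, Ptk2b, Phgdh, Slc1a3, Arc and Eef2k were among those called in both fits, whereas Ppp3cb, Nos1, Shmt2 and Slc1a4 were not called in the second (adjusted p = 0.157, 0.0561, 0.313 and 0.0630). Among the genes kept, the log2 fold change of Arc was -0.56 ± 0.12 with the trend removed, that of Phgdh -0.35 ± 0.072 and that of Eef2k -0.40 ± 0.10.

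**Figure D5:**
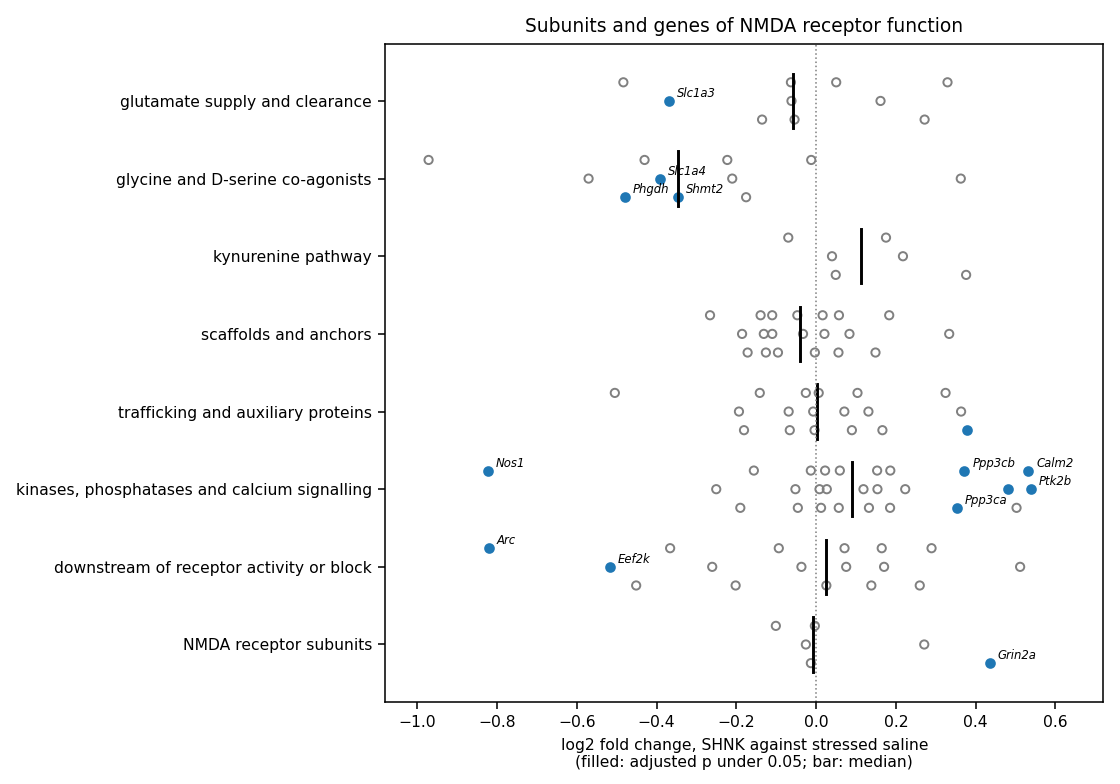
Log2 fold change of SHNK against stressed saline (horizontal axis) for the genes of the 7 lists and the 6 subunits, 1 point per gene, offset vertically for legibility; filled points have an adjusted p under 0.05, of which those named in the text are labelled, and vertical bars are list medians. Of the subunits Grin2a is filled, at 0.44, and the co-agonist list has its median at -0.35, with 3 of its 11 points filled.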

How the data were processed

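Per the labels, total RNA was made into libraries by SMARTer Ultra low RNA and TruSeq kits. The deposited values are raw read counts per gene symbol. The submitters' processing notes name Trimmomatic 0.38, HISAT2, StringTie, GRCm38 and mm10, without roles or order. There are 0 zero counts in the table, so genes unread in any library are outside it.

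Counts were filtered with filterByExpr (minimum count 10, minimum total 15), TMM-scaled and tested by quasi-likelihood with the 3 groups in 1 model (edgeR 4.0.16, R 4.3.3). Of the genes, 762 were left out. Adjusted p-values follow Benjamini and Hochberg across the whole tested table, with a threshold of 0.05, and the standard error is the log2 fold change over the root of its F. Log2 CPM used a prior count of 2. Exact permutation tests enumerated all 1680 assignments of 9 libraries to groups and are two-sided by construction, and those of correlations all pairings. Depth was high, so the spread between libraries (common biological coefficient of variation 0.132) sets the precision.

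Alternatives were DESeq2 1.42.0, limma 3.58.1 voom, DESeq2 size factors, no filter, 1 CPM in at least 3 libraries, the compared groups only, a replicate block and leaving out each library. A per-library spline trend (5 degrees of freedom each on GC content and log2 length of the longest GENCODE M21 transcript, 16724 genes) entered as an edgeR offset was added after the data were seen. Scripts were tested on simulated counts.

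The members, the 7 pathway lists, the 18 marker lists and the rules were chosen with earlier results of these data known. Named genes were the 6 members, the called genes of each pathway list (at most 4 per direction, otherwise the 2 with the smallest p), and the 5 most correlated genes per member (mean log2 CPM 3 or more), leaving out unnamed gene models. Values of list genes named by that rule in the comparisons without calls are not printed. Some genes and sequences that the rules cover are not reported here.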

Additional observations from a re-analysis of the deposited data

How the results depend on the processing

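Grin2a in SHNK against stressed saline kept its direction in every alternative run and its call in all but the replicate block and 6 of the fits that left out 1 library. The number of subunits called there was 1, against 0 with the replicate block (Grin2a at 0.43 ± 0.12, adjusted p = 0.0535, edgeR) and 0 to 1 without 1 library. For SHNK against non-stressed saline it was 0, against 1 by DESeq2 and 0 to 1 without 1 library, and for any difference 0, against 1 by DESeq2, 1 with the GC and length trend removed and 0 to 2 without 1 library. Over all genes, stressed against non-stressed saline called 213, DESeq2 472 and the fits without 1 library 40 to 306. SHNK against stressed saline called 1167, DESeq2 2005 and fits without 1 library 176 to 1385. Any difference called 888, DESeq2 2102 and fits without 1 library 187 to 1492. SHNK against non-stressed saline called 1 gene, against 994 by DESeq2, 0 by limma voom, 0 with no filter, 0 with the 1 CPM filter, 0 with the trend removed, 6 with the replicate block, 9 with only the compared groups and 0 to 749 without 1 library (749 without non-stressed saline replicate 2). The cause of these differences was not tested. The shared replicate numbers do not pair the libraries by any label, the 9 same-number pairs had r from -0.1 to 0.106 for their deviations from group means, and not every library was most like one of its own number.

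Directions turned only where the reported difference was small or the GC and length trend was removed. In SHNK against stressed saline Grin1 turned to 0.0024 by DESeq2, 0.0027 with DESeq2 size factors and 0.30 with the trend removed, and Grin2c to 0.0079 by limma voom, 0.011 with the replicate block and 0.33 with the trend removed. Grin2d turned to 0.27 and Grin3a to 0.083 with the trend removed. In SHNK against non-stressed saline the trend-removed values were 0.038 for Grin1, 0.0078 for Grin2c, 0.0083 for Grin2d and 0.010 for Grin3a. Without 1 library in turn, SHNK against stressed saline ranged from -0.099 to 0.12 for Grin1, -0.19 to 0.11 for Grin2c and -0.082 to 0.053 for Grin3a, and SHNK against non-stressed saline from -0.0071 to 0.069 for Grin2b.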
